A study of Mus musculus with 16 samples.

Results

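Astrocytes with a detected Gfap transcript made up 92 of the 4840 astrocyte barcodes (1.90%, 95% exact binomial interval 1.54 to 2.33%) that were found in the cortex of 14 mice. These 92 barcodes, called Gfap-positive astrocytes here, were chosen by measured counts. A barcode was kept with 200 to 7000 detected genes, which left 24578 of 42000. An astrocyte barcode had at least 3 unique molecular identifiers (UMIs, counted transcripts) summed over Aqp4, Gja1, Slc1a2, Cldn10, Plpp3 and Slc4a4. It also had at most 1 UMI summed over P2ry12, Cx3cr1, Mag, Mog, Cldn5, Flt1, Syt1 and Pdgfra, which mark microglia, oligodendrocytes, endothelial cells, neurons and oligodendrocyte precursors. A Gfap-positive astrocyte had at least 1 Gfap UMI in addition. Differences in these 15 genes between barcodes with and without Gfap are therefore a description, with no test. The other 4748 astrocyte barcodes, without a Gfap UMI, are the Gfap-negative astrocytes of the same mice.

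The neocortex of 1 hemisphere was dissociated from THY-Tau22 mice of both sexes, 17 months old, and from their wild-type (WT) littermates, and 1 Drop-seq library was made per mouse. THY-Tau22 mice are heterozygous for a human tau transgene with mutations linked to frontotemporal dementia, driven in neurons by the Thy1.2 promoter, so astrocytes are not the cells in which the promoter is active. The breeding pairs were transgenic males, heterozygous for tau, and females of the strain C57Bl6/J. The groups used were male mice, 3 of them WT and 3 THY-Tau22, and female mice, 3 of them WT and 5 THY-Tau22, all of 17 months and without a treatment, and the comparisons ask how the tau transgene alters gene activity and whether sex matters.

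Astrocytes are the glial cells that take up glutamate and potassium from around synapses, cover blood vessels with their endfeet and supply lipids to neurons. Gfap encodes glial fibrillary acidic protein, an intermediate filament of the astrocyte cytoskeleton (mm10, chromosome 11, 102887336 to 102897200). In the mouse cortex it is abundant in fibrous astrocytes of the white matter and in astrocytes below the pial surface, while most grey matter astrocytes hold little of it, and it is induced in reactive astrocytes.

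Each deposited table held 3000 barcodes, and the tables held 1041675 to 2237505 UMIs. WT male replicate 3 had 2952 of its barcodes in common with THY-Tau22 male replicate 4, under opposite genotypes, and both tables were left out, while the other pairs of tables shared 3 to 12 barcodes and no Gfap-positive barcode occurred in more than 1 table. One animal number stands in the titles of 2 used mice, WT male replicate 1 and a THY-Tau22 female (replicate 1). Results with these tables, and without the libraries whose titles carry the code MB22, are in the closing section.

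The Gfap-positive astrocytes were few and shallow. A mouse held 2 to 13 of them, with a median of 6, among 236 to 524 astrocyte barcodes. The 3 WT males held 6, 6 and 2, and the 3 THY-Tau22 males held 3, 4 and 12. The 3 WT females held 6, 7 and 8, and the 5 THY-Tau22 females held 9, 2, 8, 13 and 6. A single barcode had 319 to 5346 UMIs and 210 to 2120 genes, and the sums per mouse ran from 1157 to 15810 UMIs, 101409 in all against 3271810 in Gfap-negative astrocytes.

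Most Gfap-positive astrocytes were positive through a single molecule. A count of 1 Gfap UMI was found in 74 barcodes, 2 in 11, 3 in 2, 4 in 1, 5 in 1, 6 in 2 and 14 in 1. The 18 barcodes with at least 2 came from 9 mice and carried 46.0% of the 137 Gfap UMIs. At the edge of the rule, 0 members had the smallest allowed astrocyte marker sum of 3, while 3 had a sum of 4 and the median was 15.5. Of 142 kept barcodes with Gfap, 33 lay under the astrocyte marker sum, of which 2 at a sum of 2 had at most 1 UMI of the other markers. A further 17 had more than 1 UMI of the other cells' markers, and 8 of them had 2.

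Free RNA in the droplets can place a Gfap UMI in a cell that does not express it, so the share was set beside other cell classes. A Gfap UMI was found in 9 of 7190 microglial barcodes (0.125%, exact binomial interval 0.0573 to 0.237%), in 6 of 3754 endothelial barcodes (0.160%, 0.0587 to 0.348%) and in 10 of 4403 oligodendrocyte barcodes (0.227%, 0.109 to 0.417%). Their median depths were 518, 590.5 and 587 UMIs, close to that of Gfap-negative astrocytes at 560. After thinning every barcode to 500 UMIs, the share was 1.68% of astrocytes (49 of 2910) and 0.0522%, 0.0870% and 0.0712% of the other classes. Barcodes of the other classes had to hold at least 3 UMIs of their own markers and at most 1 of the rule's astrocyte markers. Those that took up more astrocyte RNA were thus left out, which can lower the shares of these classes. The astrocyte share was above that of each other class in both counts, and how many of the single Gfap UMIs were free RNA was not tested.

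Within a mouse, Gfap-positive astrocytes were deeper than Gfap-negative ones. The median UMIs per barcode averaged 864 against 559 over the mice, higher in 13 of 14 (exact sign-flip test over mice, two-sided, p = 0.000244). The median number of genes averaged 450 against 323 (p = 0.00122, same exact test). Mitochondrial mRNA took a median 1.18% against 0.895% of the UMIs, higher in 10 of 14 mice (p = 0.0338, same exact test). A deeper barcode has more chances to show a rare transcript, so the gene comparison was repeated against Gfap-negative barcodes matched on depth. The match was not complete, since the median UMIs per barcode had a median over mice of 797 in the matched barcodes against 876.5 in Gfap-positive astrocytes.

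**Figure D1:**
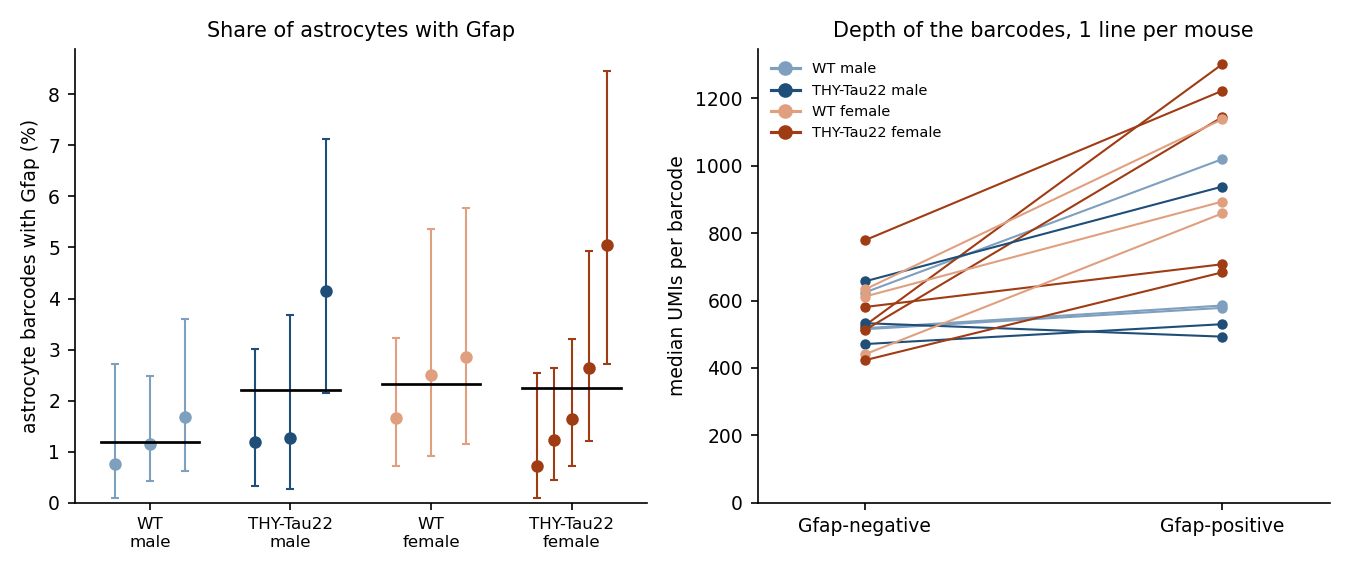
The left panel plots the percentage of astrocyte barcodes with Gfap in each mouse (points, with 95% exact binomial intervals as bars, and group means as lines) in the 4 groups, and the right panel plots the median UMIs per barcode of Gfap-negative and Gfap-positive astrocytes with 1 line per mouse. The shares run from 0.712% to 5.04% with overlapping groups, and the line goes up from left to right in 13 of 14 mice.

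By its rule the group carried astrocyte markers. In Gfap-positive astrocytes Slc1a2, the main glutamate transporter, was at 103 UMIs per 10000 against 98.9 in Gfap-negative astrocytes. Gja1, the gap junction protein connexin 43, was at 13.6 against 16.5, Plpp3 at 29.8 against 36.8, Slc4a4 at 14.2 against 16.1 and Cldn10 at 5.23 against 4.70. Aqp4, the water channel of the endfeet, was at 18.2 against 8.41 UMIs per 10000 and higher in 11 of 14 mice. Of the astrocyte identity list (14 genes outside the rule, such as the glycolytic enzyme Aldoc, the transcription factor Sox9, S100b and Ndrg2), all 14 were detected, their sum was 159 against 158 UMIs per 10000, and 0 of the 12 tested were called.

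Markers of other cells were near 0 in most lists. Neuronal markers summed to 0.789 UMIs per 10000, with Rbfox3, Stmn2, Gad1 and Slc17a7 at 0, and microglial markers to 4.24 against 5.06 in Gfap-negative astrocytes. Endothelial markers summed to 2.86 against 2.20, precursor markers to 0.690 against 1.39, mural markers to 1.18 against 1.07, fibroblast markers to 0.887 against 1.24, macrophage markers to 0.296 against 0.180 and neural stem cell markers to 0.887 against 0.770. Another pair of lists stood apart. Oligodendrocyte markers summed to 9.76 against 35.8 UMIs per 10000, lower with Gfap in 14 of 14 mice, and ependymal markers to 6.51 against 1.56.

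The ependymal UMIs lay in a handful of barcodes. Ependymal cells line the ventricles with motile cilia. Of 66 UMIs of the 6 ependymal markers, 61 were in 5 Gfap-positive barcodes of 5 mice, and the mouse totals were 26 in WT male replicate 1, 28 in WT female replicate 3 and 0 to 5 elsewhere. Ccdc153 had 33 UMIs in 3 barcodes. A share of 5.43% of Gfap-positive astrocytes had at least 2 such UMIs (exact binomial interval 1.79 to 12.2%), against 0.758% of Gfap-negative ones (0.532 to 1.05%). Among the 87 remaining members the endothelial sum was 1.4997 against 1.97 UMIs per 10000. The mural sum was 0.923 against 1.05, and both had the direction turned.

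The main question the members allow is which other genes differ between Gfap-positive and Gfap-negative astrocytes of the same mouse. Igfbp5 and Id3 led the higher genes, together with the secreted proteins Cpe and Sparcl1 and the lipid-binding proteins Dbi and Fabp7. The nuclear RNA Malat1, the splicing-related gene Pnisr and the astrocyte genes Gjb6, Grm3 and Mfge8 were lower. Of 843 genes tested outside the rule, 12 were called higher (1.42% of those tested) and 37 lower (4.39%) by edgeR's quasi-likelihood test with the mouse as a block, where the Benjamini-Hochberg adjusted p was under 0.05 and the log2 fold change was 0.5 or more in size. The median log2 fold change of all tested genes was -0.15, and 145 had an unadjusted p under 0.05.

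How many genes fell on each side depended on the scaling. The split of higher and lower calls was 12 and 37 with library totals, 15 and 13 with RLE size factors (the scaling of DESeq2, in edgeR), 8 and 59 with TMM size factors (trimmed mean of M values), and 12 and 10 with DESeq2. The median log2 fold change of all genes was -0.05 with RLE and -0.28 with TMM. Against Gfap-negative barcodes matched on depth the split was 9 and 20. Without the barcodes with at least 2 ependymal marker UMIs in either class, 22 of the 49 calls were lost, 3 higher and 19 lower, and each such gene named below has its value without them. A core of 20 genes, 7 higher and 13 lower, was called under library totals, RLE, TMM and the depth match alike.

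Igfbp5 had the smallest adjusted p of the higher genes. It encodes a secreted protein that binds insulin-like growth factors (mm10, chromosome 1, 72858065 to 72874865). In Gfap-positive astrocytes the 3 WT males had 629, 1500 and 0 CPM (UMIs scaled to the same total in every sum), and the 3 THY-Tau22 males had 694, 367 and 63.3. The 3 WT females had 975, 1165 and 1054 CPM, and the 5 THY-Tau22 females had 1463, 1920, 531, 2019 and 0. In Gfap-negative astrocytes Igfbp5 ran from 51.0 to 851 CPM with a median of 191. It was higher with Gfap in 10 of 14 mice (log2 fold change 1.81 ± 0.29 (SE), adjusted p = 8.5e-08), and the 88 UMIs behind it were in 32 of the 92 barcodes. The 4 mice without the rise were WT male replicate 4, THY-Tau22 male replicate 3 and THY-Tau22 female replicates 3 and 5.

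Id3, an inhibitor of DNA-binding transcription factors, followed (mm10, chromosome 4, 136143822 to 136145392). Its level in Gfap-positive astrocytes ran from 0 to 3072 CPM with a median of 662, against 84.0 to 773 CPM with a median of 250 in Gfap-negative astrocytes. The level was higher with Gfap in 9 of 14 mice (log2 fold change 1.46 ± 0.29, adjusted p = 6.8e-05), and 3 mice had no UMI. Fabp7, the brain fatty acid-binding protein (mm10, chromosome 10, 57784923 to 57788450), ran from 0 to 1462 CPM with a median of 395, against a median of 242. Its log2 fold change was 1.10 ± 0.30 (adjusted p = 0.0097, 10 of 14 mice), and the call was lost without THY-Tau22 female replicate 4 (0.97, adjusted p = 0.056).

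The most abundant higher genes encode secreted proteins. Cpe, the carboxypeptidase that trims peptide hormones, had a median of 3373 against 1991 CPM and was higher in 12 of 14 mice (log2 fold change 0.84 ± 0.18, adjusted p = 2.7e-04). Its highest level, 11372 CPM, was in THY-Tau22 female replicate 4. Sparcl1, a matrix protein that astrocytes release at synapses, was higher in 12 of 14 mice with a median of 11874 against 7905 CPM (0.54 ± 0.16, adjusted p = 0.017), close to the limit of 0.5, and its call was lost with TMM (0.29) and without any 1 of THY-Tau22 female replicates 2, 3 and 4, where it ran from 0.49 to 0.50. Dbi, which binds acyl-CoA esters and acts on GABA receptors, had a median of 2215 against 1349 CPM (0.83 ± 0.19, adjusted p = 0.0013, 10 of 14 mice). Of its 324 UMIs in Gfap-positive astrocytes, 100 were in the 5 ependymal-marker barcodes, and without such barcodes it was called at 0.67 (adjusted p = 0.021).

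The other 6 higher genes were less stable. Fxyd1, a regulator of the sodium pump, had a log2 fold change of 1.06 ± 0.30 and lost its call without WT female replicate 1 (0.91) or THY-Tau22 female replicate 4 (0.99). Gpm6b, a proteolipid of the membrane, was at 0.60 ± 0.20 (adjusted p = 0.0497) and lost its call without any 1 of 7 mice, with 0.44 without THY-Tau22 female replicate 4 as the lowest value and 0.61 (adjusted p = 0.0504) without the ependymal-marker barcodes. Wapl, which releases cohesin from chromatin, was at 1.18 ± 0.35 and lost its call without WT male replicate 1 (1.07). Taok1, a protein kinase, was at 1.03 ± 0.34 and lost it without any 1 of 6 mice, with 0.83 without THY-Tau22 male replicate 3 as the lowest value and 0.95 (adjusted p = 0.12) without the ependymal-marker barcodes. The predicted gene Gm10288 was at 1.14 ± 0.33 and lost its call without THY-Tau22 female replicate 3 (0.96) or 4 (1.02). The predicted gene Gm973 was at 1.09 ± 0.31 and lost it without WT male replicate 1 (0.96) or WT female replicate 3 (0.89). Without the 5 ependymal-marker barcodes and their Gfap-negative counterparts, Gm973 was at 0.45 (adjusted p = 0.60). Of all 12, the calls of Igfbp5, Id3, Cpe and Dbi held with any single mouse left out.

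**Figure D2:**
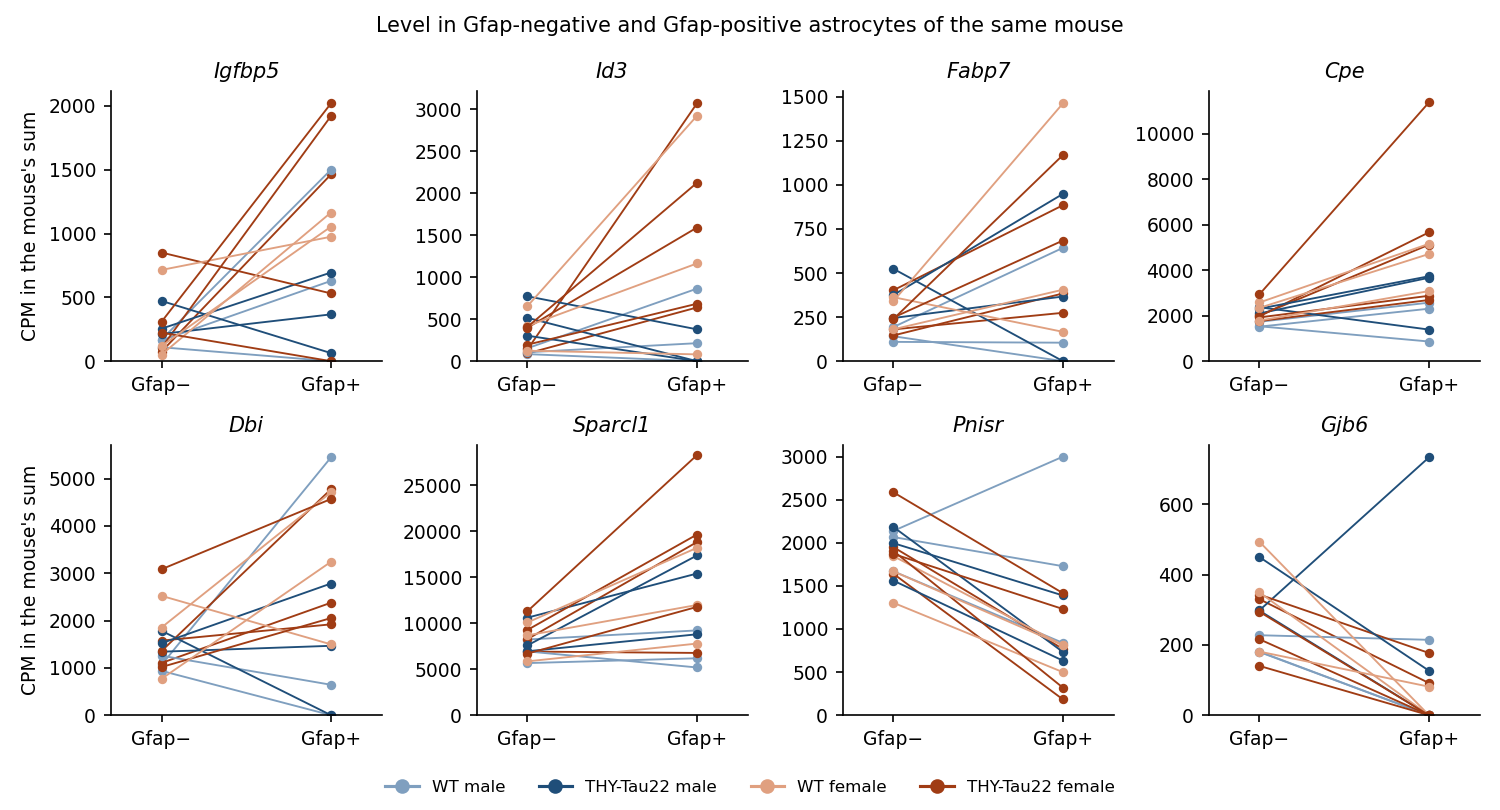
Each panel plots 1 gene in CPM of the mouse's sum, in Gfap-negative (left) and Gfap-positive (right) astrocytes, with 1 line per mouse and colours for the 4 groups. Pnisr goes down in 13 of 14 mice, Cpe and Sparcl1 go up in 12 of 14, and Igfbp5, Fabp7 and Dbi go up in 10 of 14.

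Among the lists, the homeostatic genes of astrocytes held 3 lower calls, where 37 of all 843 tested genes (4.39%) were called lower. These genes serve ion, transmitter and debris uptake. Of 12, all were detected and 11 tested, 0 were called higher, and their median log2 fold change was -0.49 beside -0.15 for all genes. Gjb6, the gap junction protein connexin 30 (mm10, chromosome 14, 57123301 to 57133611), had 9 UMIs in 8 Gfap-positive barcodes and none in 8 of 14 mice. Its rate was 0.887 against 2.81 UMIs per 10000 and it was lower in 13 of 14 mice (log2 fold change -1.82 ± 0.47, adjusted p = 0.0062). Mfge8, which tags debris for uptake (mm10, chromosome 7, 79133768 to 79149060), had a median of 509 against 994 CPM and was lower in 13 of 14 mice (-0.85 ± 0.25, adjusted p = 0.018), with the call lost without WT female replicate 3 (-0.69) or without the ependymal-marker barcodes (-0.72, adjusted p = 0.062). Grm3, a metabotropic glutamate receptor, was at -1.61 ± 0.50 (adjusted p = 0.029), had no UMI in 12 of 14 mice and lost its call without any 1 of 5 mice or without the ependymal-marker barcodes (-1.499, adjusted p = 0.062). The transporters Slc1a3 (-0.35 ± 0.18) and Slc7a10 (-1.07 ± 0.40) were not called, nor was the potassium channel Kcnj10 (0.29 ± 0.31) or glutamine synthetase Glul (-0.07 ± 0.19).

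Other lower genes lay outside the homeostatic list. Pnisr, a nuclear protein linked to splicing, was among the calls of smallest adjusted p (-1.13 ± 0.22, adjusted p = 8.1e-05, lower in 13 of 14 mice). Malat1, a long RNA retained in the nucleus, had a median of 44972 against 73965 CPM (-0.72 ± 0.15, adjusted p = 1.3e-04, lower in 12 of 14 mice). The long noncoding RNA Mir99ahg was called lower as well (-1.64 ± 0.43). Meg3 (-1.68), Xist (-1.05), Son (-0.80) and Arglu1, named here after their values were seen, were called lower with less stable calls. With single mice left out, Xist ran from -1.19 to -0.94 and Son from -0.90 to -0.67, each uncalled without any 1 of 3 mice, and Arglu1 was uncalled without any 1 of 7. Without the ependymal-marker barcodes Son was at -0.74 (adjusted p = 0.062). Meg3 was too low to be tested without any 1 of 3 mice, and Xist was at 0.63 with DESeq2, in the opposite direction. Further called genes were F3, the tissue factor of coagulation (-1.66 ± 0.34), Gria2, a subunit of AMPA glutamate receptors (-1.22 ± 0.27), Dclk1, a microtubule-associated kinase (-0.96 ± 0.22, lower in 14 of 14 mice), Luzp2 (-0.93 ± 0.23), the Wnt receptor Fzd2 (-1.80 ± 0.46) and the RNA-binding protein Celf2 (-1.86 ± 0.48). Celf2 and Fzd2 had no UMI in the Gfap-positive sums of 9 mice each, so their fitted values rest on few molecules.

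The list of fibrous and pial astrocyte genes summed to 41.0 against 17.3 UMIs per 10000, higher in 13 of 14 mice. Of its 12 genes 11 were detected and 4 were abundant enough to be tested. Of these 4, 2 (Id3 and Fabp7) were called higher, beside 12 of all 843 tested genes (1.42%). The median log2 fold change of the 4 was 0.73 beside -0.15 for all genes. Like the other lists, it was chosen with earlier results of these data known. Id4 was at 0.36 ± 0.26 and Igfbp2 at -0.59 ± 0.38, neither called. The genes that were too low in most sums to be tested included the one with the largest contrast, Myoc.

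Myoc encodes myocilin, a secreted glycoprotein expressed by fibrous and pial astrocytes. It had 78 UMIs in 20 of 92 Gfap-positive astrocytes (21.7%, exact binomial interval 13.8 to 31.6%) and 36 UMIs in 19 of 4748 Gfap-negative ones (0.400%, 0.241 to 0.624%). The rates were 7.69 and 0.110 UMIs per 10000, a ratio of 69.9 with a counting interval of 46.5 to 107. Of the 78 UMIs, 27 were in 2 barcodes of THY-Tau22 female replicate 1, and the interval does not cover the spread between barcodes or mice. In Gfap-positive sums the WT males had 314, 1714 and 0 CPM, the THY-Tau22 males 0, 0 and 127, the WT females 1300, 1331 and 324, and the THY-Tau22 females 2468, 0, 531, 1275 and 0. Myoc was thus found with Gfap in 9 of 14 mice of all 4 groups, and the Gfap-negative sums ran from 0 to 33.0 CPM. When edgeR was run with no filter on low counts, Myoc was called with a log2 change of 5.67 ± 0.33 (edgeR adjusted p = 1.6e-61). In the same fit Vim, the intermediate filament vimentin, was at 1.67 ± 0.36 (adjusted p = 0.0024) with 3.25 against 0.935 UMIs per 10000. Of its 33 UMIs in Gfap-positive astrocytes, 15 were in the 5 ependymal-marker barcodes, and without such barcodes Vim was at 2.08 against 0.673 UMIs per 10000. Cilium genes such as Dnah12, Iqcg and Rsph4a were also called in that fit, from 2 or 3 barcodes each.

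Myoc went along with the strength of Gfap. Of the 18 members with at least 2 Gfap UMIs, 14 had a Myoc UMI (77.8%, exact binomial interval 52.4 to 93.6%), and of the 74 with 1 Gfap UMI, 6 did (8.11%, 3.03 to 16.8%). The first were deeper, with a median of 1244.5 against 704 UMIs, and came mostly from females. The parts of depth and sex in this difference were not tested. Seen from the other side, 20 of the 39 astrocyte barcodes with Myoc had Gfap (51.3%, 34.8 to 67.6%). The barcode with the most Gfap, 14 UMIs in THY-Tau22 female replicate 1, also had 14 Myoc UMIs among 2434.

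The barcodes with Myoc also carried most of the Igfbp5 and Id3. The 20 Gfap-positive astrocytes with Myoc had 25.2 Igfbp5 and 21.0 Id3 UMIs per 10000, while the 72 without Myoc had 2.93 and 4.92. All Gfap-negative astrocytes had 2.71 and 2.81, and the counting interval of Igfbp5 in Gfap-positive barcodes without Myoc, 1.83 to 4.43, includes the first of these. The 19 Gfap-negative astrocytes with Myoc had 16.9 Igfbp5 and 22.3 Id3 UMIs per 10000. Cpe was at 79.3 with Myoc and 33.4 without it in Gfap-positive astrocytes, against 19.8 in all Gfap-negative ones, and Sparcl1 at 202 and 101 against 76.3. Gjb6 had no UMI in the 20 barcodes with Myoc and all of its 9 UMIs in the 72 without. The Gfap-positive barcodes with Myoc came mostly from females. WT males had 1, 1 and 0 of them, and THY-Tau22 males 0, 0 and 1. WT females had 2, 2 and 2, and THY-Tau22 females 2, 0, 2, 7 and 0. These rates pool barcodes over mice and sexes and were not tested.

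The members were also sorted by their own Gfap count. No mouse had 10 barcodes of both kinds, so pooled rates are given with counting intervals and no test. The barcodes with at least 2 Gfap UMIs came from fewer mice and mostly from females. WT males had 1, 1 and 0 of them, and THY-Tau22 males 0, 0 and 0. WT females had 2, 3 and 1, and THY-Tau22 females 3, 1, 2, 4 and 0. The part of sex in the pooled rates was not tested. Igfbp5 was at 22.8 UMIs per 10000 (17.2 to 29.5) with at least 2 Gfap UMIs, 4.06 (2.76 to 5.76) with 1 and 2.71 with none. Id3 was at 20.4, 5.37 and 2.81. Aqp4, used by the rule, was at 26.8, 15.4 and 8.41, and Sparcl1 at 190, 107 and 76.3. In the other direction Luzp2 was at 2.00, 11.8 and 15.6, Mfge8 at 4.00, 9.03 and 11.5, and Gjb6 at 0, 1.18 and 2.81. Plpp3, a lipid phosphatase used by the rule, was at 13.2, 35.2 and 36.8, while Slc1a2 was at 114, 99.6 and 98.9.

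**Figure D3:**
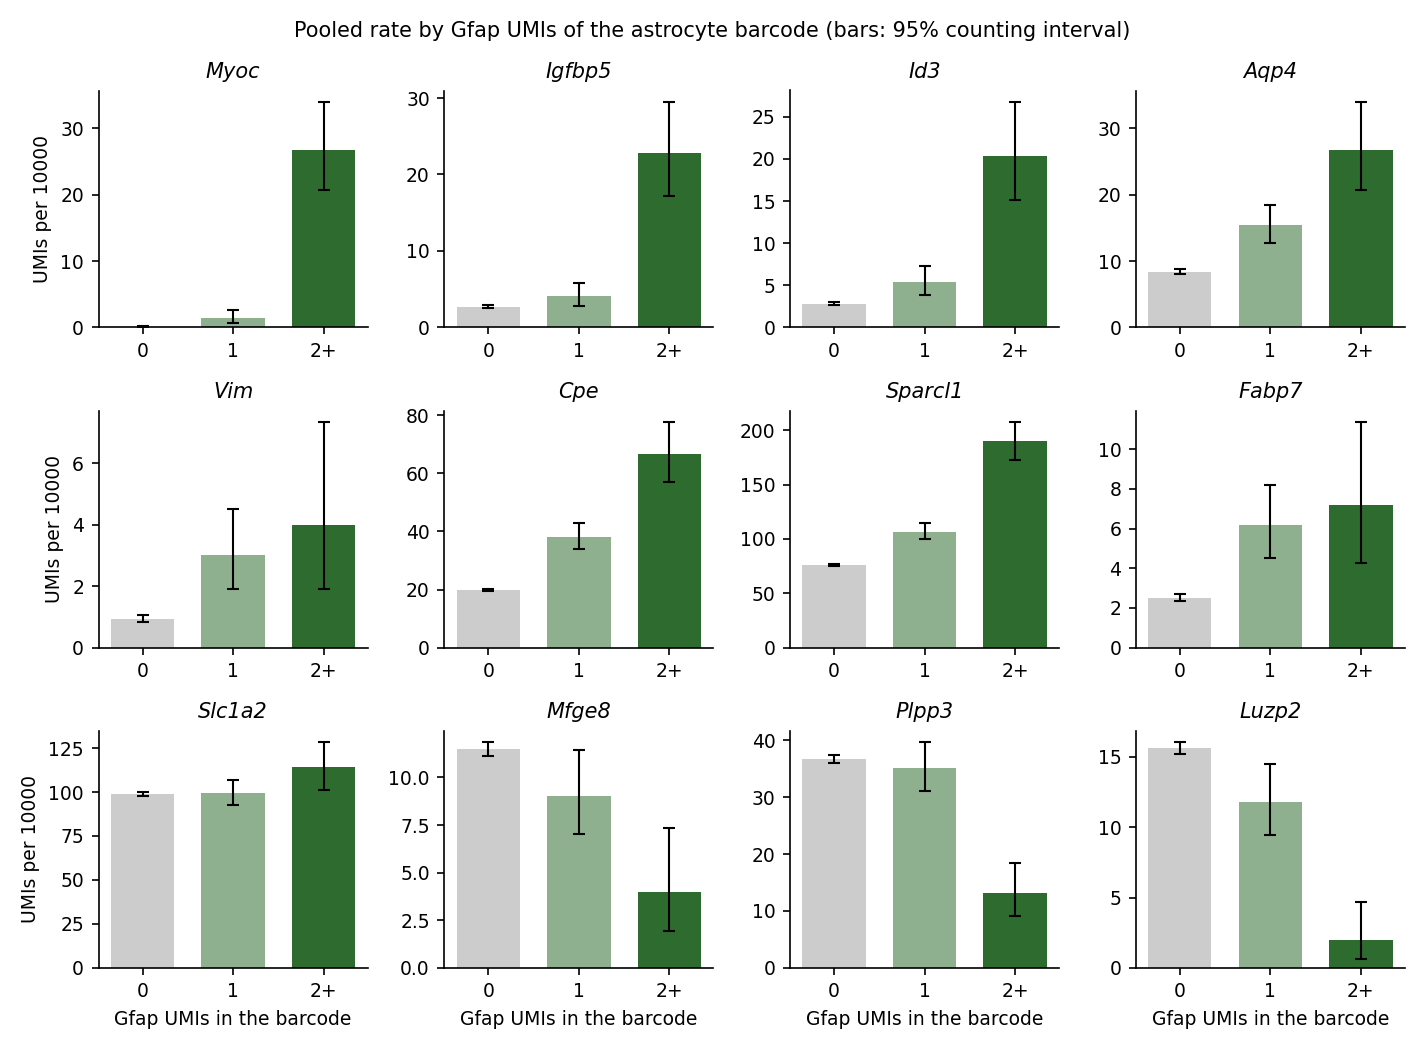
Bars show UMIs per 10000 of 12 genes, pooled over the mice, in astrocyte barcodes with 0 (Gfap-negative), 1, or at least 2 Gfap UMIs, and the error bars are 95% Poisson counting intervals. Myoc, Igfbp5, Id3, Aqp4, Cpe and Sparcl1 step up with the Gfap count, Slc1a2 stays between 98.9 and 114, and Mfge8, Plpp3 and Luzp2 are lowest at 2 or more.

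Genes of the reactive state were hardly detected. Of 30 genes of reactive astrocytes, 15 had a UMI in Gfap-positive astrocytes and 15 did not, among them Lcn2, Serpina3n, Timp1, Steap4, Cxcl10 and Cd44. A count of 0 among 101409 UMIs allows up to 3 UMIs, so low levels of these genes were not detectable. Only Ctsb was abundant enough to be tested (0.22 ± 0.33, not called). C3 had 2 UMIs in 1 barcode, C4b 5 UMIs in 5 and Vim 33 in 20. The sum of the list, to which Vim belongs, was 12.5 against 8.41 UMIs per 10000 and was higher in 8 of 14 mice (9.81 against 7.58 without the ependymal-marker barcodes). The antigen presentation and complement list was at 5.32 against 4.80 UMIs per 10000, and the interferon list, with no gene tested, at 3.06 against 2.12.

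The lists of lipid genes, metallothioneins and mitochondrial mRNAs had higher sums, with no gene called. All 7 tested lipid transport and synthesis genes had a positive log2 fold change (median 0.27), from Scd2 at 0.08 ± 0.21 and Apoe, the main lipid carrier of astrocytes, at 0.27 ± 0.16 to Fabp5 at 0.72 ± 0.31. The sum was 200 against 138 UMIs per 10000 and was higher in 9 of 14 mice. The 3 metallothioneins Mt1, Mt2 and Mt3, which bind zinc and copper, were at 0.15 ± 0.18, 0.41 ± 0.21 and 0.31 ± 0.19, and summed to 79.7 against 53.7 UMIs per 10000, higher in 9 of 14 mice. Mitochondrial mRNAs summed to 139 against 97.5 UMIs per 10000 and were higher in 12 of 14 mice, with mt-Cytb at 0.55 ± 0.19 (adjusted p = 0.053) and mt-Nd4 at 0.57 ± 0.21 (adjusted p = 0.081).

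The remaining lists held few calls, where 1.42% of all tested genes were called higher and 4.39% lower. Of 4 immediate early genes tested (Fos, Jun, Jund and Egr1), 0 were called and all 4 had a negative log2 fold change, with a median of -0.67. Of 7 chaperones, Hspa5 of the endoplasmic reticulum was called lower (-0.72 ± 0.24, adjusted p = 0.043), a call lost without any 1 of 6 mice, with -0.54 without THY-Tau22 female replicate 4. Of 7 matrix genes, Sparcl1 was called higher, while Htra1 (-0.64 ± 0.23), Bcan (-0.64 ± 0.28) and Timp3 (-0.56 ± 0.25) were not called. Of 12 ribosomal protein genes and 3 S100 genes tested, 0 were called. Of 23 tested genes that the study had chosen in astrocytes of these same mice, 3 were called higher (Cpe, Gpm6b and Sparcl1) and 3 lower (Pnisr and Malat1 among them), and that list is not independent of these libraries.

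**Figure D4:**
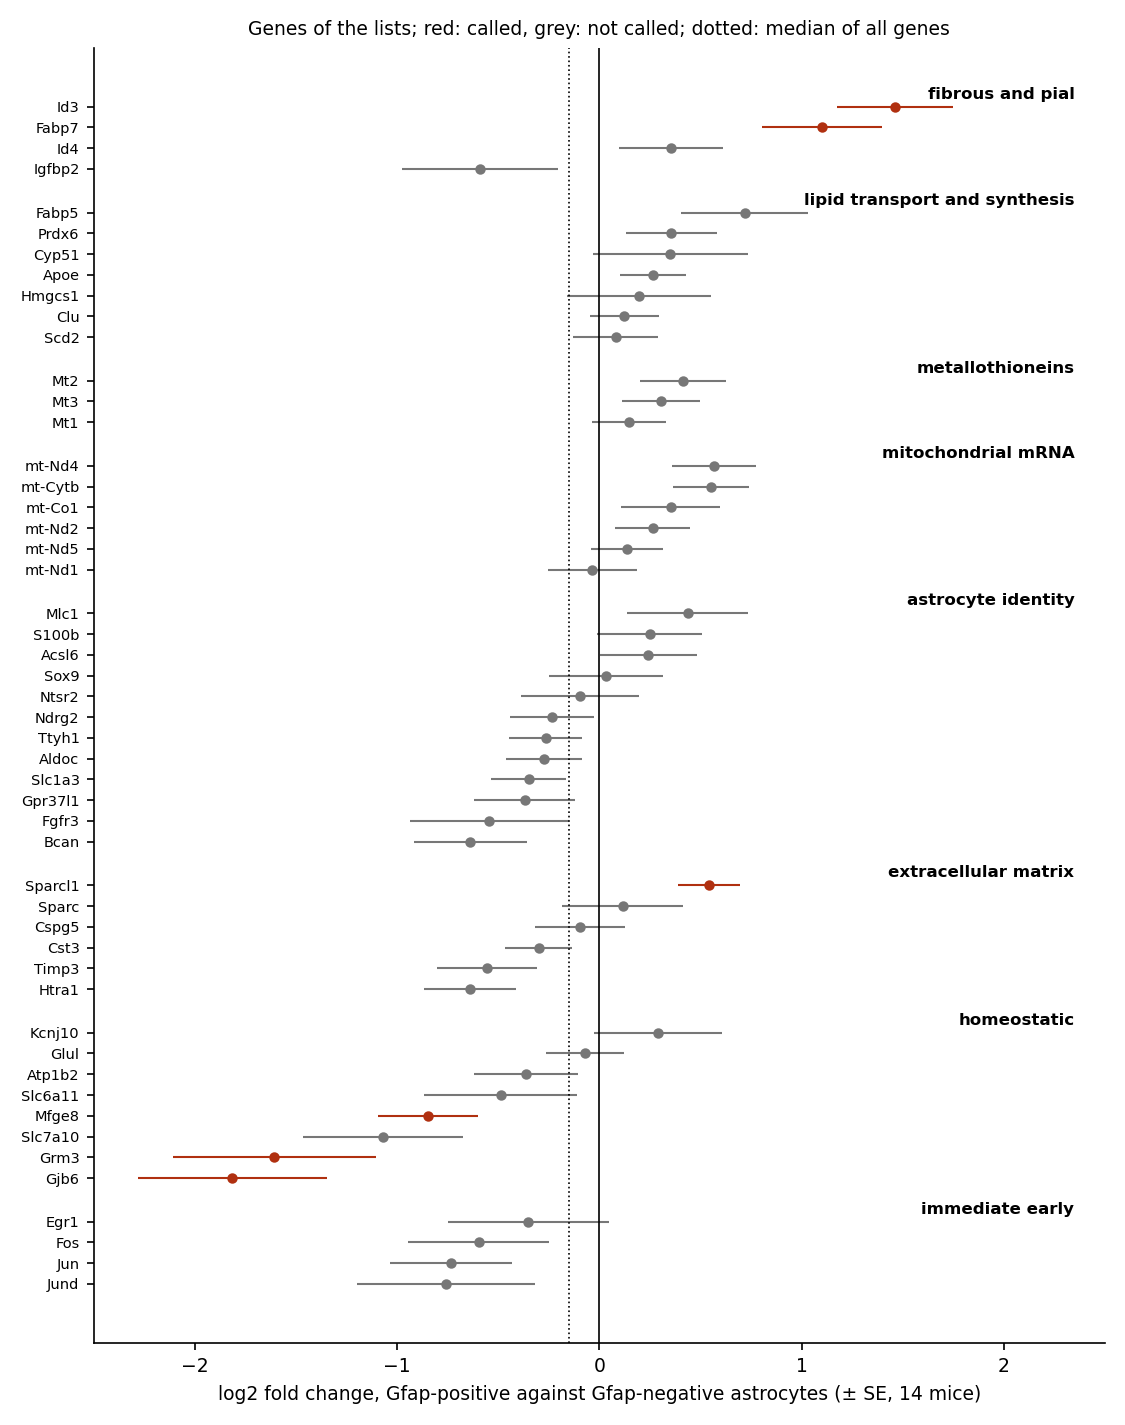
Points give the log2 fold change of Gfap-positive against Gfap-negative astrocytes with its standard error for tested genes of 8 lists, red where called and grey where not, with a dotted line at the median of all genes (-0.15). Id3, Fabp7 and Sparcl1 lie called on the right, and Gjb6, Grm3 and Mfge8 called on the left.

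The genotypes did not differ detectably in how many astrocytes had Gfap. The share was 1.19% ± 0.459 (SD, n = 3) in WT males, 2.20% ± 1.68 (n = 3) in THY-Tau22 males, 2.33% ± 0.614 (n = 3) in WT females and 2.25% ± 1.71 (n = 5) in THY-Tau22 females. The THY-Tau22 males had 1.27%, 1.19% and 4.14%, so their mean rested on replicate 3, and the groups overlapped in both sexes. THY-Tau22 minus WT was 1.01 percentage points in males (exact two-sided permutation test, p = 0.40), where 3 against 3 mice cannot go below 0.1. It was -0.0841 points in females (exact permutation p = 0.911, smallest possible 0.0179) and 0.462 over both sexes (exact permutation within sex, p = 0.537). Thinned to 500 UMIs, the differences were 0.652, 0.802 and 0.727 points (exact permutation p = 0.50, 0.857 and 0.644).

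The level of Gfap over all astrocyte barcodes, which does not use the Gfap clause, showed no detectable difference either. It was 21.1 ± 10.7 CPM (SD, n = 3) in WT males, 28.0 ± 12.2 (n = 3) in THY-Tau22 males, 62.2 ± 31.8 (n = 3) in WT females and 63.7 ± 55.7 (n = 5) in THY-Tau22 females. The difference was 6.96 CPM in males (exact permutation p = 0.50) and 1.49 in females (exact permutation p = 0.946). In edgeR over all genes of these sums, the Gfap log2 fold change was 0.54 ± 0.83 in males, 0.02 ± 0.62 in females and 0.28 ± 0.51 over both. A level from fewer cells with Gfap and one from less Gfap per cell cannot be told apart in these sums.

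Within Gfap-positive astrocytes no gene was called between the genotypes. The fit held 68 genes, and the counts are over the 62 outside the rule. In males 0 were called (0% of those tested), with 6 at an unadjusted p under 0.05. In females 0 were called (0%), with 1 such gene. Over both sexes 0 were called (0%), with 3 such genes, and in the sex by genotype interaction 0 (0%), with 4. DESeq2 also called 0 in each of the 4 contrasts. The standard errors ran from 0.38 to 1.35 in males and from 0.34 to 1.26 in females on the log2 scale, and 1 UMI was worth 63.3 to 864 CPM in a mouse's sum, so differences of several-fold could pass undetected.

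The genes outside the rule with the smallest p are named as uncalled. In males they were Cst3, the secreted protease inhibitor cystatin C (log2 fold change 2.23 ± 0.82, adjusted p = 0.43), mt-Cytb (2.16 ± 0.87), Tspan7 (2.40 ± 1.04), Ndrg2 (1.86 ± 0.86) and Gpr37l1 (2.20 ± 1.08). Cst3 was at 1467, 5142 and 3457 CPM in the WT males and at 11806, 5132 and 22075 in the THY-Tau22 males, which overlap. In females they were Rbm25, a splicing factor (-1.58 ± 0.77, adjusted p = 1.00), Dclk1 (1.32 ± 0.79), Prdx6 (-1.04 ± 0.67), Id2 (-1.04 ± 0.71) and Ccdc88a (0.92 ± 0.77). Over both sexes they were Rbm25 (-1.50 ± 0.62), Cst3 (1.15 ± 0.53), Luc7l3 (-1.38 ± 0.68), Tspan7 (1.21 ± 0.64) and the glycolytic enzyme Aldoc (1.03 ± 0.54). For the interaction they were mt-Cytb (2.77 ± 1.08), mt-Nd4 (2.18 ± 1.05), Cst3 (2.15 ± 1.04), Prdx6 (2.20 ± 1.08) and mt-Nd1 (2.11 ± 1.11).

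Of 6 mitochondrial mRNAs fitted, 4 were higher in every THY-Tau22 male than in any WT male (mt-Co1, mt-Cytb, mt-Nd4 and mt-Nd5), and mt-Nd1 and mt-Nd2 overlapped. Of all 62 genes outside the rule, 7 were higher without overlap in males (11.3%) and 5 lower (8.06%), and 0 in females (0%). mt-Cytb, a subunit of respiratory complex III, was at 838, 1286 and 864 CPM in the WT males and at 4167, 2199 and 5313 in the THY-Tau22 males, with no overlap (exact two-sided permutation test, p = 0.10, the smallest possible). In females it was at 2599, 9982 and 1216 CPM with WT and at 3200, 4608, 2300, 5208 and 1916 with THY-Tau22, which overlap. Summed over the mitochondrial mRNAs, the WT males had 70.2 to 83.6 and the THY-Tau22 males 185 to 201 UMIs per 10000. The mitochondrial rRNAs mt-Rnr1 and mt-Rnr2 overlapped in males. Their means were 15473 and 241436 CPM with WT against 9558 and 197063 with THY-Tau22. The median mitochondrial share per barcode, a usual measure of cell quality, is taken here from mRNAs without these rRNAs. It is therefore not a measure apart from the sum above. This share was 0.596% ± 0.313 (SD, n = 3) in WT males and 1.41% ± 0.245 (n = 3) in THY-Tau22 males (exact permutation p = 0.10), and 1.25% ± 0.565 (n = 3) against 1.34% ± 0.794 (n = 5) in females (exact permutation p = 0.875). In Gfap-negative astrocytes of the same males the share was 0.461, 0.682 and 0.495% with WT. It was 1.07, 1.05 and 1.52% with THY-Tau22, also without overlap. The separation of the share in males was thus not particular to Gfap-positive astrocytes. The part of this share in the uncalled genes was not tested. The median UMIs per barcode differed by -74.2 in males (exact permutation p = 0.50) and 48.6 in females (exact permutation p = 0.839).

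Igfbp5 and Id3, which led the genes called higher with Gfap, overlapped between genotypes in each sex. Igfbp5 ran from 0 to 1500 CPM in WT males and from 63.3 to 694 in THY-Tau22 males, and from 975 to 1165 in WT females and from 0 to 2019 in THY-Tau22 females. Id3 ran from 0 to 864 and from 0 to 380 CPM in WT and THY-Tau22 males, and from 81.1 to 2924 and from 640 to 3072 CPM in WT and THY-Tau22 females. Gfap itself, whose presence was required, ran from 734 to 1729 CPM in WT males, 759 to 2083 in THY-Tau22 males, 892 to 1949 in WT females and 821 to 2560 in THY-Tau22 females.

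The genotype effect was finally compared between the Gfap classes, with the mouse as a block. In males 0 of 843 genes were called (0%), and 54 of all genes fitted had an unadjusted p under 0.05. The smallest adjusted p, 0.293, belonged to Igfbp5 (log2 difference -3.70 ± 1.13). In females 0 of 843 were called (0%), with 28 at an unadjusted p under 0.05, and the smallest adjusted p was 0.535 for Cox6a1. DESeq2 called 0 in both sexes.

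**Figure D5:**
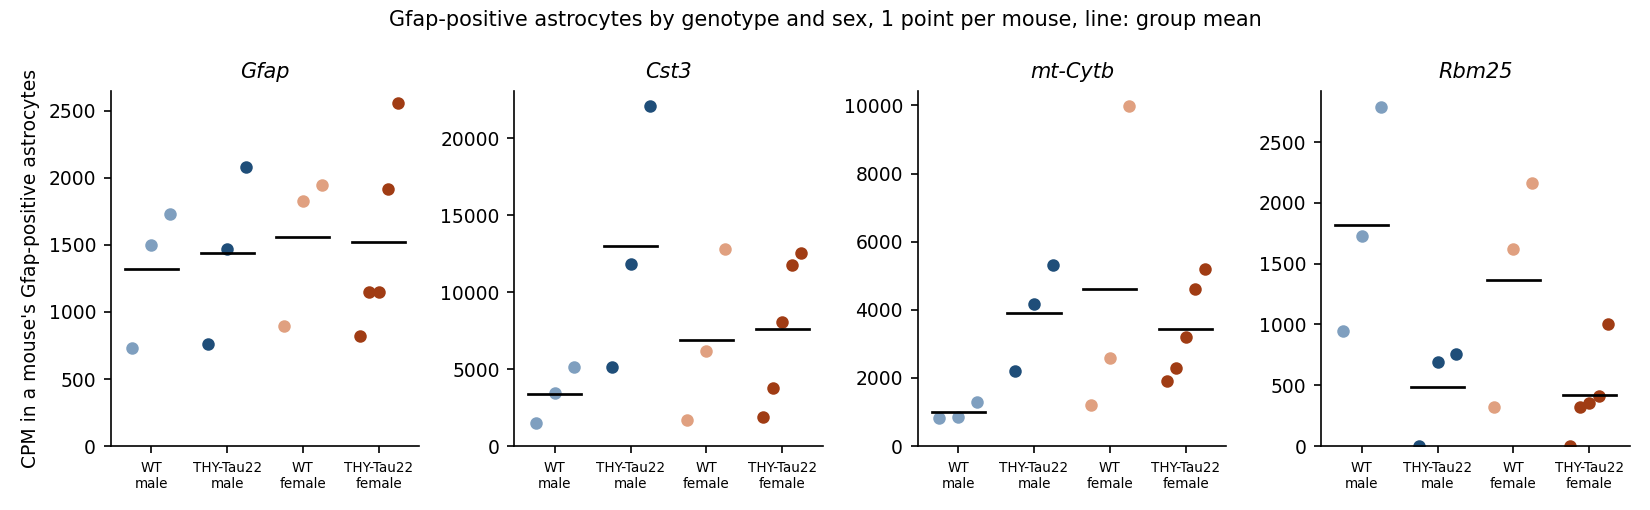
Points give Gfap, Cst3, mt-Cytb and Rbm25 in CPM of each mouse's Gfap-positive astrocytes in the 4 groups, with lines at the group means. mt-Cytb separates the WT males (838 to 1286) from the THY-Tau22 males (2199 to 5313), and the other panels and all female groups overlap, except Rbm25 in males.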

How the data were processed

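UMI counts per gene and barcode were deposited by the authors for 16 Drop-seq libraries, 1 per mouse, as raw counts without normalization over 30389 gene symbols. The reads went through the standard Drop-seq pipeline, whose setting for reads shared by similar genes was not given in the sources used here, so predicted genes such as Gm10288 are uncertain. The build mm10 is named in the submitters' processing notes, and gene positions come from RefSeq for that build.

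The members, lists and tests were chosen with earlier results of these data known. UMIs of Gfap-positive and Gfap-negative astrocytes were summed per mouse and tested in edgeR 4.0.16 (R 4.3.3) by its quasi-likelihood test after the filterByExpr filter, with the mouse as a block between the 2 classes and 1 mean per group for genotype. The edgeR p-values rest on a spread between mice that was shared over genes. How far a single gene varied over the mice hardly enters them, so very small values are not to be read as mouse-level certainty. By an exact sign-flip test over the mice, which uses each gene's own spread, 40 of the 49 genes called between the classes had an unadjusted p under 0.05, 11 higher and 29 lower. Calls used the study's limits, an adjusted p under 0.05 with a log2 fold change of 0.5 or more in size. Single values were compared by exact two-sided tests (scipy 1.17.1). Intervals are 95% exact binomial or Poisson intervals and cover counting error only.

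The planned minimum of 10 members a mouse was met by 2 mice, both THY-Tau22, so every mouse entered and the minimum became an alternative. Planned TMM factors were replaced by library totals, after a test on simulated data showed that TMM shifted unchanged genes at these small sums. The simulation drew both classes from the Gfap-negative profile, with as many genes changed up as down. The real classes differ in composition, with Malat1 at 4.34% of the UMIs with Gfap and 7.25% without. The simulation therefore cannot tell which scaling suits them. Scrublet (scanpy 1.11.5) marked 3.50 to 7.56% of kept barcodes as doublets in 12 libraries. It marked 0.627% in THY-Tau22 female replicate 4 and 0.0718% in THY-Tau22 male replicate 3. Doublets may have been missed in these libraries, and why so few were marked was not tested. Doublets were kept (4 of the 92 members).

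Genes were named by a rule: the 15 genes of the selection, up to 10 called genes per direction for the class comparison and 5 otherwise, genes of the lists, and up to 5 genes of smallest p where none was called. Meg3, Xist, Son, Arglu1, Gpm6b, Taok1 and the cilium genes were named after their values were seen. Alternatives were DESeq2 1.42.0, RLE and TMM factors, no filter, no block, matched depth (10 Gfap-negative barcodes per member), thinning, a 5% limit on mitochondrial mRNA, no doublets, stricter markers, the shared library under each label, no MB22 libraries and each mouse left out. The results of a few genes are not reported here.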

Additional observations from a re-analysis of the deposited data

Results flagged for a closer look

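After thinning to 500 UMIs, the share of astrocytes with Gfap was 9.78% in THY-Tau22 female replicate 4 (9 of 92 barcodes), far from the other 4 THY-Tau22 females, whose highest value was 3.12%. This was the 1 value that stood apart among 20 groups of values examined. With that many groups such a value can arise by chance alone, and how often was not tested. The same mouse had 13 Gfap-positive astrocytes of 258 without thinning (5.04%), and its library was 1 of the 2 in which few doublets were marked. The other such library, THY-Tau22 male replicate 3, had a share of 4.14% without thinning.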

How the results depend on the processing

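Between Gfap-positive and Gfap-negative astrocytes, 12 genes were called higher and 37 lower. The higher count moved to 48 with no filter on low counts, to 4 when thinned to 500 UMIs (175 genes left to test) and to 1 with at least 10 members a mouse (2 mice). The lower count moved to 13 with RLE size factors, 59 with TMM size factors, 16 with no filter, 10 with DESeq2, 8 when thinned, 70 with Gfap at 2 UMIs or more, 24 with the other markers at 0, 20 without the ependymal-marker barcodes, 3 with at least 10 members and 20 on matched depth. Leaving out 1 mouse gave 6 to 15 higher and 19 to 41 lower genes, with 6 and 19 without THY-Tau22 female replicate 4 and 11 and 19 without WT female replicate 3. The other alternatives stayed within 1.5 times of both counts. Thinning, matching and the minimum leave fewer UMIs or mice, and for the remaining shifts the cause was not tested. Of the called genes, Xist was at 0.63 with DESeq2 and Grm3 at 0.092 with at least 10 members, each with the opposite sign. Matched depth, TMM, the ependymal alternative and the minimum of 10 were added after seeing the data.

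The mouse is the block in the class comparison, where both sums come from the same animal. With no replicate block, 8 genes were higher and 29 lower. No paired analysis was possible because the labels do not number mice across genotypes, so the genotype contrasts have no such fit.

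Genotype calls in Gfap-positive astrocytes stayed at 0 under every alternative fitted. With 10 members a mouse no WT mouse was left, so none was fitted. For the class by genotype comparison 1 gene was called in females with no filter.

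The small genotype differences changed sign easily. The share of astrocytes with Gfap was -0.156 points in males and -0.135 over both sexes with Gfap at 2 UMIs or more. In females it was 0.0231 with the mitochondrial limit, 0.0508 without doublets, 0.0149 with the other markers at 0 and 0.802 thinned. Without single mice it ran from 0.0378 to 1.51 in males, -0.782 to 0.300 in females and -0.0232 to 0.715 over both. The Gfap level differed in females by -7.64 CPM without doublets, -1.23 with astrocyte markers at 5 or more and -1.22 without the MB22 libraries, and over both sexes by -1.45 without doublets. Without single mice it ran from -0.0776 to 13.0 CPM in males, -14.9 to 17.8 in females and -3.99 to 12.4 over both. Median UMIs per member in males differed by 43.7 with astrocyte markers at 5 or more, 45.7 with the other markers at 0, 24.6 with both copies as labelled and 97.1 with the shared library as THY-Tau22. Without single mice the range was -216.5 to 71.8 in males and -23.8 to 135.9 in females. The median mitochondrial share differed by 0.856 in males with the shared library as WT (exact permutation p = 0.0286), by -0.0405 in females without the MB22 libraries, and by 0.633 to 0.927 in males and -0.230 to 0.303 in females without single mice. In these measures that was the 1 alternative with an exact p under 0.05. Depth limits all of this, since 92 barcodes carry 137 Gfap UMIs.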

Other observations

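Sex was set beside Gfap after the values had been seen, so the following is a description chosen from the data. Over all astrocyte barcodes Gfap ran from 13.1 to 129 CPM in 8 females and from 12.7 to 42.1 CPM in 6 males, a female minus male difference of 38.4 CPM (exact two-sided permutation within genotype, p = 0.0696). The share of astrocytes with Gfap differed by 0.596 percentage points (exact permutation p = 0.385), or 1.74 points after thinning (exact permutation p = 0.196). The median depth of Gfap-positive astrocytes differed too, by 297 UMIs (exact permutation p = 0.0446), and its part in the other differences was not tested. These 4 p-values are not adjusted, and none passes 0.05 once multiplied by their number.

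Several genes outside the tested set were concentrated in Gfap-positive astrocytes when edgeR was run with no filter. Slc38a1, a glutamine transporter, had 25 UMIs in 13 barcodes of 9 mice (2.47 against 0.254 UMIs per 10000, log2 fold change 3.00 ± 0.35). Cidea, a lipid droplet protein, had 8 UMIs in 8 barcodes of 6 mice, against 5 UMIs in all Gfap-negative astrocytes. Fxyd6, a regulator of the sodium pump, had 18 UMIs in 10 barcodes of 5 mice (1.77 against 0.144), and Scd1, a fatty acid desaturase, 21 UMIs in 17 barcodes of 11 mice (2.07 against 0.581). These names were chosen after their values were seen.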
